A study of Homo sapiens with 4 samples.

Results

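The nuclear lamina is a mesh of lamin filaments under the inner nuclear membrane, and it anchors much of the inactive chromatin at the nuclear edge. B-type lamins stay attached to the membrane, whereas A-type lamins are also found inside the nucleus, and integral membrane proteins link the mesh to chromatin on one side and to the cytoskeleton on the other. Loss of lamin B1 is a widely used marker of senescence, the stable growth arrest that an active RAS oncogene can set off in fibroblasts. The chromosome contacts of the genes that encode these proteins are described here, for 7 genes: the lamin genes LMNB1, LMNB2 and LMNA, the lamina-binding genes LBR and TMPO, and the SUN genes SUN1 and SUN2. They were taken by name from 20097 protein-coding genes on the autosomes and X, and each was placed in the bin of about 200 kb that holds its transcription start in hg19. With 5 bins on each side these windows cover 76 of the 14444 bins in the deposited list.

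Contacts were measured by Hi-C, which cuts fixed chromatin with HindIII, joins ends that lie close together and counts the joined ends by sequencing. All cells were IMR90, a human lung fibroblast line in wide use. The 4 samples of the series carried ER:HRAS G12V (a RAS oncogene that is switched on by 4OHT, in the vector pLNCX2) and pMSCV miR shHMGA1 (a hairpin against the chromatin protein HMGA1, called shA1), and were kept at 5% oxygen. Of these, 2 were growing without 4OHT (Grow-shA1) and 2 received 100 nM 4OHT for 6 days and entered oncogene-induced senescence (OIS-shA1). The replicates of a condition were pooled by the authors into 1 map. The maps without the hairpin, Grow and OIS, were made earlier by the same laboratory and correspond to none of the 4 samples. Wherever shA1 maps are set against them, hairpin and data set cannot be told apart. With 1 map per condition there was no spread between replicates and no test of any difference was possible.

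The deposited value for 2 bins of a chromosome is a contact score set against the average for their distance, so that 0 is average contact. The base of its logarithm is not stated, so differences are given in score units and not as folds. Pairs more than 2 Mb apart were called distal and nearer pairs local, and the value of a gene is the mean over the pairs of its start bin that were listed in all 4 maps. Depth was judged by how many of the possible pairs a map lists. The maps listed between 4032189 pairs (OIS-shA1) and 4631800 pairs (Grow). Distal contact was read only where at least 50% of the pairs of a bin were listed in each map, and local contact where at least 10 local pairs were. A difference was counted when it was past 0.1 for distal and 0.2 for local contact, and its percentile gives its place among the bins of the same chromosome that met the same rule.

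The bin edges lie at HindIII sites, so the sequence at an edge shows where the interval that stands for a gene begins and ends. Edges are shown for LMNA, LBR and TMPO, which are among the genes described most fully below, as 30 bases of the plus strand of GRCh37 with the HindIII site in capitals. None of these edges lies in an exon of a protein-coding gene. The lower edge of the LBR bin lies in an intron of LBR itself, so the last part of that gene belongs to the neighbouring bin, the upper edge of the LBR bin lies in an intron of ENAH, and the upper edge of the LMNA bin lies in an intron of PMF1 and the PMF1-BGLAP read-through. The other edges shown are between protein-coding genes.
LMNA lower edge, chr1:156000522-156000551: aggagatcaaagAAGCTTggggggcttcag
LMNA upper edge, chr1:156199011-156199040: ttttaggtacctAAGCTTagcttccaaggt
LBR lower edge, chr1:225596375-225596404: tctttcctcaagAAGCTTattatcatctgg
LBR upper edge, chr1:225800389-225800418: gaacataaactaAAGCTTttgccaaatatt
TMPO lower edge, chr12:98797502-98797531: aggaagaaactgAAGCTTggggaggttaaa
TMPO upper edge, chr12:99001193-99001222: agacttcctctcAAGCTTggcgtttggtcg

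Bins with fewer such sites were the ones in which distal contact could not be read. The bins of LMNB1, LBR, TMPO and SUN2 met the rule for distal contact and hold 40, 62, 59 and 37 HindIII sites. Those of LMNB2, LMNA and SUN1 did not meet it and hold 12, 29 and 27 sites. Over the autosomes and X, bins that met the rule had a median of 59 sites and 39.7% GC, and bins that did not had 34 sites and 49.9% GC. The GC content of the LMNB2, LMNA and SUN1 bins was 54.1%, 50.9% and 55.2%, and that of the LMNB1, LBR and TMPO bins lay between 41.7% and 43.5%. The SUN2 bin met the rule at 50.03% GC. Of the 76 window bins, 50 met it: all 11 around each of LMNB1, LBR, TMPO and SUN2, 5 around LMNA, 1 around LMNB2 and none around SUN1, whose start lies 0.856 Mb from the chromosome end. Listing was also lower in OIS than in Grow, and this held over the whole map. The median share over the bins that met the rule was 91.0% in Grow and 81.5% in OIS. The LMNB2 bin listed 47.4% of its pairs in Grow and 27.8% in OIS, the SUN1 bin 56.1% and 35.9%, and the LMNA bin 55.5% and 40.7%. For these 3 genes distal values rest on 18, 113 and 233 pairs and are given below without a percentile. All 7 bins met the rule for local contact, with 12 to 19 pairs each.

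The bins also differ in what else they hold. LMNB1 (chr5:126112315-126172712, plus strand) and LBR (chr1:225589204-225616627, minus strand) are the only protein-coding genes that start in their bins, and TMPO (chr12:98909357-98944129, plus strand) shares its bin with SLC25A3, a phosphate carrier of mitochondria. LMNA (chr1:156052364-156109872, plus strand) shares its bin with 8 other genes and SUN2 (chr22:39129295-39190148, minus strand) with 6. LMNB2 (chr19:2427636-2456957, minus strand) shares it with TIMM13 and GADD45B, and SUN1 (chr7:856252-936072, plus strand) with GET4 and ADAP1. The windows hold from 4 genes (TMPO) and 11 genes (LMNB1) to 71 (LMNB2) and 74 (LMNA). A value of a bin is therefore a value of a neighbourhood, and for LMNA and SUN2 of a crowded one.

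**Figure D1:**
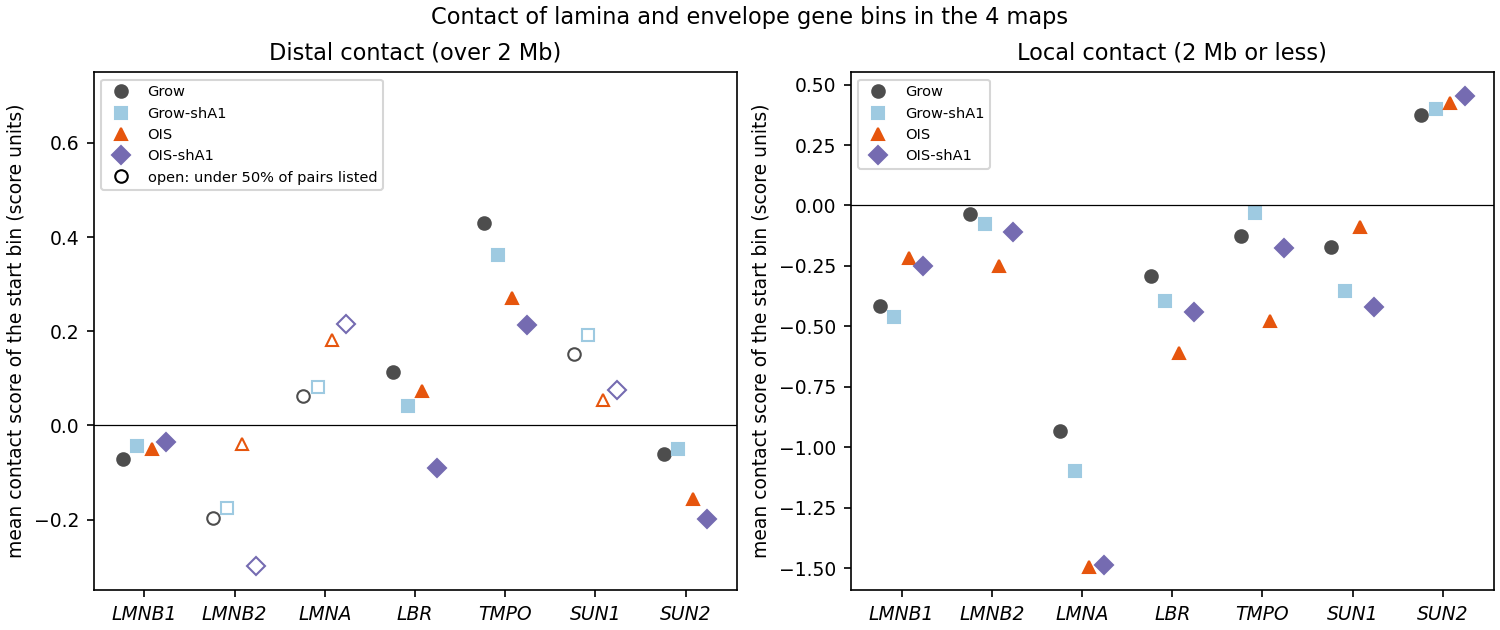
Mean contact score of the start bin of each gene in the 4 maps, for distal pairs on the left and local pairs on the right (score units, 0 is the mean contact at the same distance). Filled symbols met the rule for listed pairs and open symbols did not. TMPO is the highest filled gene in distal contact in all 4 maps, LMNA the lowest in local contact, and SUN2 is the only gene whose local contact is above 0 in all 4 maps.

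LMNB1 encodes lamin B1. Its bin had more contact with active chromatin in the senescent maps, both without and with shA1, while its total distal contact was close in all 4 maps. The distal score was -0.0724 in Grow, -0.0449 in Grow-shA1, -0.0493 in OIS and -0.0363 in OIS-shA1, with an SD over the 541 pairs between 0.456 and 0.670. The RAS difference, OIS minus Grow, was 0.0231, at percentile 74.8 of chromosome 5. Grow-shA1 minus Grow was as small, 0.0275, but lay at percentile 96.2. The total hides opposite movements of its parts. Each partner bin was assigned to compartment A (active, gene-rich) or B (inactive) from the Grow map, by the first principal component of the contact correlations. With the 273 A partners the LMNB1 bin scored 0.0460 in Grow and 0.228 in OIS, a difference of 0.182 at percentile 91.3. With shA1 the same contact went from -0.0127 in growing to 0.174 in senescent cells, a difference of 0.187 at percentile 88.6. These differences have no map in common. Contact with the 262 B partners was lower in OIS by the same comparison, with a difference of -0.135 without and -0.179 with shA1, at percentiles 34.1 and 23.7. The rise with A partners extended over the neighbourhood: 10 of the 11 window bins were higher in OIS than in Grow, and 11 of 11 in OIS-shA1 than in Grow-shA1.

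The compartment score, which is positive in A and negative in B, gave the same order of maps as contact with A partners. Both were computed from the same contacts, and the A partners were set by this component in Grow. The shared order is therefore not a separate result. For LMNB1 it was 0.622 in Grow, 0.207 in Grow-shA1, 0.959 in OIS and 0.809 in OIS-shA1. The bin was in A in each map and lay deeper in A in both senescent maps than in either growing map. The score was higher by 0.337 in OIS than in Grow (percentile 78.7) and OIS-shA1 minus Grow-shA1 was 0.602 (percentile 92.7). In growing cells the map with shA1 was lower, with a difference of -0.415 at percentile 2.21, and contact with B partners was higher there by 0.118 (percentile 97.6). The count of window bins in A was 6 of 11 in Grow, 6 in Grow-shA1, 11 in OIS and 7 in OIS-shA1, so the stretch around LMNB1 was all A only in the OIS map. On its lower side that window holds 3 bins in which no protein-coding gene starts, and the upper side holds MARCHF3, a ubiquitin ligase, and MEGF10, a receptor for the uptake of dying cells.

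Local contact of the LMNB1 bin was -0.415 in Grow, -0.461 in Grow-shA1, -0.217 in OIS and -0.249 in OIS-shA1. These values lay at percentiles 25.9, 27.3, 44.5 and 44.8 of chromosome 5. The bin stayed below the mean at its distance in every map and lay nearer to it in both senescent maps. From Grow to OIS it was higher by 0.198, with an SD over the 18 pairs of 0.182, and 83.3% of the pairs were higher. OIS-shA1 minus Grow-shA1 was 0.212 (SD 0.234 over 18 pairs, percentile 91.6), the only difference past 0.2 upwards among the 7 genes in that comparison, where 8.09% of all bins were. The rise belonged to the bin itself more than to its surroundings, since the mean over the window was 0.0365 without shA1 and -0.0796 with it. In OIS-shA1 minus OIS all 11 window bins were lower, from -0.404 to -0.0316, with LMNB1 the least changed of them. The median of chromosome 5 was -0.0528 in that comparison. Among 487 distal partner blocks the largest rise in OIS minus Grow was with chr5:108401244-108598742, where no protein-coding gene starts, from -0.186 in Grow to 0.665 in OIS. The largest fall was with chr5:116201643-116403222, a B region without a gene start, from -0.724 to -1.77. With shA1 the contact went from 0.0693 to 0.438 for the first region and from -0.583 to -0.776 for the second, so the direction was the same. Both regions were picked as the extremes of OIS minus Grow, so the sizes without and with shA1 cannot be compared.

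**Figure D2:**
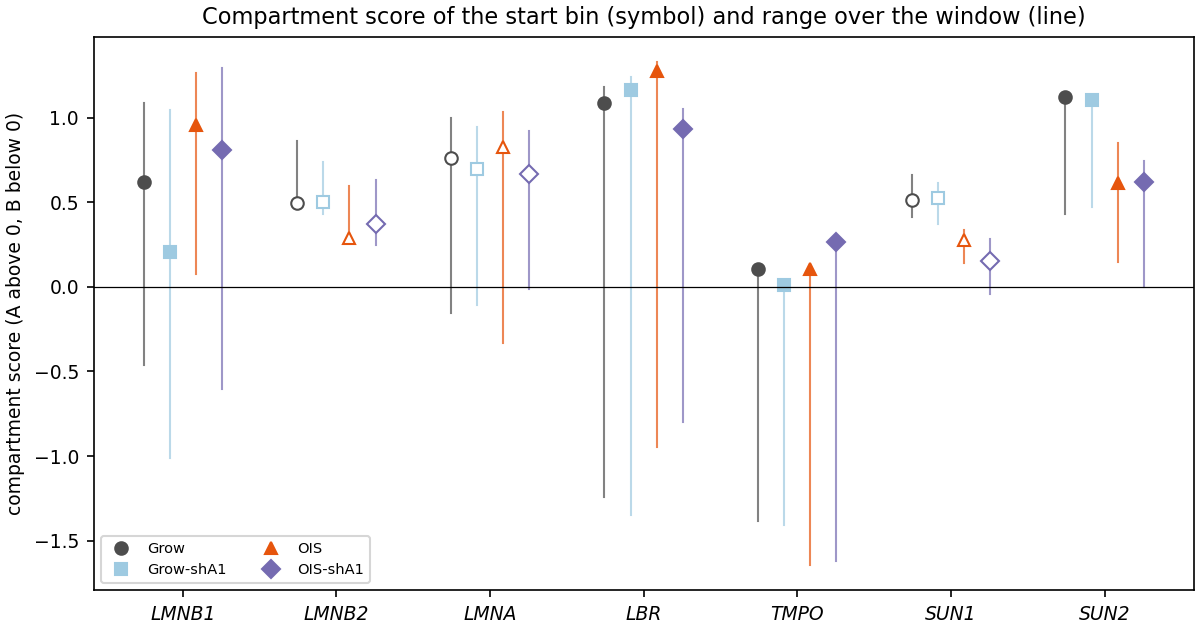
Compartment score of the start bin (symbol, no unit, A above 0) in the 4 maps, with a line from the lowest to the highest value in the window of each gene. Open symbols are bins that did not meet the rule for listed pairs and were scored with every bin that has any value. LMNB1 is higher in both senescent maps (0.959 and 0.809) than in both growing maps, SUN2 is lower (0.613 and 0.619 against 1.12 and 1.10), and TMPO lies near 0 at the top of a window that is otherwise B.

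LMNB2 encodes lamin B2, the other B-type lamin of these cells. Its bin has the fewest HindIII sites of the 7, and with 18 of 264 possible distal pairs listed in all 4 maps its distal scores of -0.197 in Grow, -0.175 in Grow-shA1, -0.0393 in OIS and -0.298 in OIS-shA1 say little, with an SD over pairs of at least 0.708. Only 6 partner blocks could be read, and OIS minus Grow lay between -0.594 and -0.0423 in them. Local contact was -0.0355 in Grow, -0.0783 in Grow-shA1, -0.249 in OIS and -0.109 in OIS-shA1. OIS was the lowest of the maps and OIS minus Grow was -0.213, with an SD over the 12 pairs of 0.647 and equal numbers of pairs up and down. All 9 window bins that could be read were lower in OIS than in Grow, with a mean of -0.228, and all 9 were lower in OIS-shA1 than in Grow-shA1, with a mean of -0.227. The medians of chromosome 19 were -0.106 and -0.0242. The sign at the start bin itself was less firm, since it was 0.184 over pairs 1 Mb apart or less.

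LMNA encodes lamins A and C by alternative splicing. Its bin had the lowest local contact of the 7 genes in all 4 maps, and it was lower still with RAS. The local score was -0.931 in Grow, -1.10 in Grow-shA1, -1.49 in OIS and -1.49 in OIS-shA1, at percentiles between 4.11 and 6.35 of chromosome 1. From Grow to OIS the difference was -0.562 (SD 0.722 over 19 pairs, percentile 18.8) and OIS-shA1 minus Grow-shA1 was -0.391 (SD 0.697, percentile 15.5). All 11 window bins were lower in both comparisons. Chromosome 1 as a whole was lower as well, with medians of -0.323 and -0.174 over its bins. The low contact was one-sided. Towards higher coordinates, where the gene is transcribed to, the 9 local pairs averaged -1.59 in Grow and -2.49 in OIS, and towards lower coordinates the 10 pairs averaged -0.337 and -0.595. It was also a matter of pairs between 1 and 2 Mb, which went from -1.71 in Grow to -2.63 in OIS, whereas pairs between 0.3 and 1 Mb went from -0.460 to -0.537. Taken as the median over pairs in each map, the difference was -0.00298, so the mean and the median over pairs did not move alike.

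Distal contact of the LMNA bin, from 233 of 1124 pairs, was 0.0629 in Grow, 0.0821 in Grow-shA1, 0.181 in OIS and 0.216 in OIS-shA1. The senescent maps were the higher pair, by 0.118 without and 0.134 with shA1, against an SD over pairs of 0.735 and 0.797. The LMNA bin did not meet the rule for distal contact and listed 55.5% of its pairs in Grow and 40.7% in OIS. No other way of taking the pairs was tried for its distal contact. The part of listing in these values was not tested. The 5 window bins that met the listing rule were higher in both comparisons as well, with means of 0.0882 and 0.0859. Among distal partners, those 10 to 20 Mb away showed the largest differences, 0.426 without and 0.602 with shA1, over 26 pairs. The 16 pairs 2 to 5 Mb away went the other way, with -0.414 without and -0.168 with shA1. The partner region with the largest rise in OIS minus Grow, among 100 blocks of 3 by 3 bins, was chr1:186600415-186805083, 30.6 Mb away. It holds PTGS2, which encodes the inducible cyclooxygenase, and PLA2G4A, which encodes the phospholipase that releases its substrate. Its contact with LMNA was -1.10 in Grow, -1.08 in Grow-shA1, -0.103 in OIS and -0.0409 in OIS-shA1, so both growing maps lay far below both senescent maps. The compartment score of that partner bin was 0.367 in Grow and 1.31 in OIS. For LBR, on the same chromosome, the OIS score went from 1.28 to -1.14 with a component per chromosome arm. The partner bin was not scored in that way. Being the extreme of 100 blocks, this region is given as a description. The largest fall was at chr1:162802865-162999639, where CCDC190 starts, with -0.697 without shA1 and 0.0367 with it. That region too was picked as an extreme of OIS minus Grow, so these values cannot be compared in size.

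**Figure D3:**
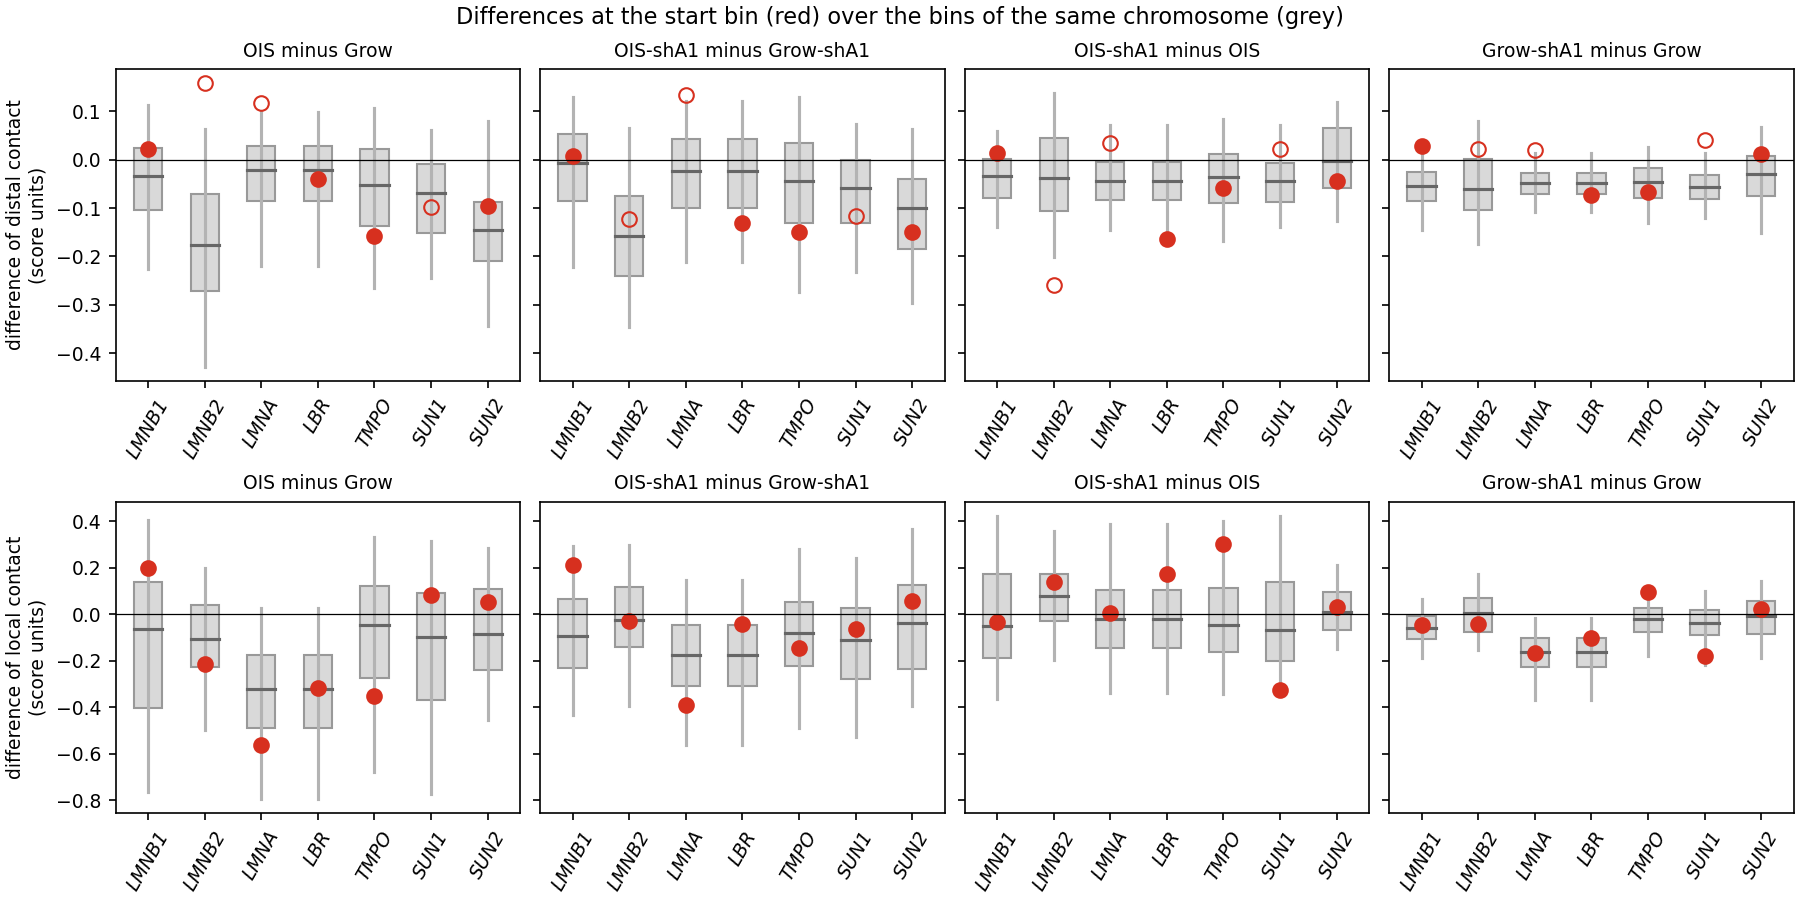
Differences at the start bin of each gene (red, filled where the rule for listed pairs was met) in 4 comparisons, for distal contact above and local contact below (score units). Grey boxes span the 25th to 75th percentile of the bins of the same chromosome that met the rule, the line in each box is their median, and the thin lines reach the 5th and 95th percentile. In OIS-shA1 minus OIS the LBR bin (-0.164) lies below the 5th percentile in distal contact. In Grow-shA1 minus Grow the LMNB1 bin (0.0275) lies above the 95th percentile in distal contact. No filled point in OIS minus Grow lies outside the thin lines.

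LBR encodes the lamin B receptor, an inner membrane protein that binds B-type lamins and heterochromatin and is also a sterol reductase. Its distal contact was lowest in the map of senescent cells with shA1. The score was 0.113 in Grow, 0.0402 in Grow-shA1, 0.0734 in OIS and -0.0911 in OIS-shA1, over 594 pairs with an SD between 0.520 and 0.657. OIS-shA1 minus OIS was -0.164, at percentile 2.21 of the 997 bins of chromosome 1 that met the rule and at percentile 1.37 of its 438 A bins. LBR was the 1 gene of the 4 with a readable distal value that was past -0.1 in that comparison, where 18.7% of all bins were, and none was past 0.1, where 4.54% were. All 11 window bins were lower, from -0.269 to -0.0609. Chromosome 1 was lower as well, with a median of -0.0449 and a 75th percentile of -0.00569 over its bins. The listed share of the LBR bin was 72.4% in OIS and 71.4% in OIS-shA1 (read counts are not given). With all pairs listed in each map the difference was -0.0846, and with unlisted pairs counted as 0 it was -0.0608, both no longer past 0.1.

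By distance, this difference of the LBR bin was -0.460 with partners 5 to 10 Mb away and -0.379 with those 10 to 20 Mb away. It was -0.240 from 20 to 50 Mb and -0.125 from 50 to 100 Mb. It was thus smaller with each step in distance, and beyond 100 Mb it was 0.0123. Below 5 Mb the sign was the other way, with 0.0657 at 2 to 5 Mb. Both compartments took part. Contact with the 329 A partners was 0.291 in OIS and 0.131 in OIS-shA1, a difference of -0.160 at percentile 13.4 of all bins and 1.14 of A bins. Contact with the 215 B partners was -0.274 in OIS and -0.520 in OIS-shA1, a difference of -0.246 at percentile 5.12. In growing cells the shA1 map was lower with B partners by the same measure, with -0.186 at percentile 5.22, and level with A partners, with -0.00282. OIS minus Grow, in contrast, was -0.0394 for all distal pairs, near the middle of the chromosome (percentile 41.3). OIS-shA1 minus Grow-shA1 was -0.131 (percentile 16.6).

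Local contact of the LBR bin was -0.293 in Grow, -0.397 in Grow-shA1, -0.610 in OIS and -0.438 in OIS-shA1. OIS was the lowest map. OIS minus Grow was -0.317 (SD 0.304 over 19 pairs, 15.8% of pairs up), which is the middle of chromosome 1 (percentile 50.7). The difference was 0.0309 once each map was centred on its chromosome mean at each distance, taken over the pairs listed in every map. OIS-shA1 minus Grow-shA1 was -0.0417 (percentile 75.4), and 0.144 with the same centring, so the sign of both differences turned with it. The difference of these differences was 0.275, at percentile 77.3 of a chromosome whose median was 0.127, and 0.113 after centring. It was positive in all 11 window bins before centring. In compartment score LBR stayed in A, with 1.09 in Grow, 1.16 in Grow-shA1, 1.28 in OIS and 0.933 in OIS-shA1. With a component per chromosome arm the OIS value was -1.14, so the compartment call of LBR in OIS depended on how the component was taken. The largest rise of a partner in OIS minus Grow, among 365 blocks, was at chr1:203197805-203398531, 22.4 Mb away, with the starts of CHIT1, BTG2 and FMOD (a chitinase, an antiproliferative p53 target and the matrix protein fibromodulin). This contact was -0.476 in Grow, -0.394 in Grow-shA1, 0.553 in OIS and 0.610 in OIS-shA1, and the senescent maps were higher by 1.03 without and 1.00 with shA1. The largest fall, with chr1:230202005-230404041, was -0.758 without and -0.218 with shA1. Both regions were picked as extremes of OIS minus Grow, so their sizes without and with shA1 cannot be compared.

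TMPO encodes the lamina-associated polypeptides LAP2, of which LAP2 beta sits in the inner membrane and LAP2 alpha binds A-type lamins inside the nucleus. Its bin is a gene island. It was the 1 bin of its window with a positive compartment score in all 4 maps, by little (0.105 in Grow, 0.0137 in Grow-shA1, 0.107 in OIS and 0.264 in OIS-shA1), among 10 bins that were B in all 4. The only other bin of the window with a gene start, next to it, holds IKBIP and APAF1, which encodes the scaffold of the apoptosome. With every bin that has any value the Grow-shA1 score was -0.0269, so the side of 0 was not settled in that map.

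Distal contact of TMPO was 0.430 in Grow, 0.362 in Grow-shA1, 0.271 in OIS and 0.212 in OIS-shA1, over 512 pairs with an SD between 0.562 and 0.695. It was the highest of the 4 readable genes in each map, and lower in both senescent maps than in both growing maps. OIS minus Grow was -0.159 and OIS-shA1 minus Grow-shA1 was -0.150. These lay at percentiles 19.97 and 21.06 of all bins of chromosome 12. Among its 254 A bins, to which TMPO belongs only by a score of 0.105 in Grow, they lay at 3.94 and 4.72. TMPO was the 1 readable gene past -0.1 in OIS minus Grow, where 35.3% of all bins were, and no readable gene was past 0.1, where 5.51% were. The medians of chromosome 12 were -0.0525 in OIS minus Grow and -0.0430 in OIS-shA1 minus Grow-shA1. All 11 window bins were lower in each of these 2 comparisons, and the means over the window, -0.219 and -0.252, were further from 0 than the TMPO bin. The difference was seen with A partners (from 0.430 to 0.227 in OIS, -0.203) and with B partners (from 0.431 to 0.310, -0.121). By distance it was -0.331 with partners 5 to 10 Mb away, -0.371 from 10 to 20 Mb and -0.279 from 20 to 50 Mb. The sign turned from 50 to 100 Mb, where OIS was higher by 0.206. The strongest fall among 445 blocks was with chr12:89999016-90199806, 8.80 Mb away, where ATP2B1, a calcium pump of the cell membrane, starts. That contact was 0.286 in Grow, 0.561 in Grow-shA1, -0.869 in OIS and -0.458 in OIS-shA1, lower in both senescent maps. The largest rise was with chr12:10000395-10199624, which holds 7 genes of the C-type lectin cluster, from -0.0517 in Grow to 0.754 in OIS. With shA1 that rise was not seen, with 0.126 in growing and 0.0598 in senescent cells. Since both blocks were picked as extremes of OIS minus Grow, their sizes without and with shA1 cannot be compared.

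Local contact of TMPO was -0.126 in Grow, -0.0322 in Grow-shA1, -0.478 in OIS and -0.177 in OIS-shA1. The OIS map stood apart from the other 3. Without shA1 the RAS difference was -0.353 (SD 0.427 over 19 pairs, percentile 19.2), lower in 11 of 11 window bins, and OIS-shA1 minus Grow-shA1 was -0.144 (SD 0.385, percentile 38.9). OIS-shA1 minus OIS was 0.302 (SD 0.196 over 19 pairs), higher in all 19 pairs and in all 11 window bins. It lay at percentile 90.2 of the chromosome and at 98.8 of its A bins, to which TMPO belongs only by a small score. Taken as the median over pairs in each map it was 0.0710 and no longer past 0.2. This comparison and OIS minus Grow share the OIS map. In growing cells the map with shA1 was also higher, by 0.0934 (percentile 93.6). The loss in OIS was greatest between 0.3 and 1 Mb, from -0.851 in Grow to -1.54 in OIS over 7 pairs, with -1.14 in OIS-shA1.

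**Figure D4:**
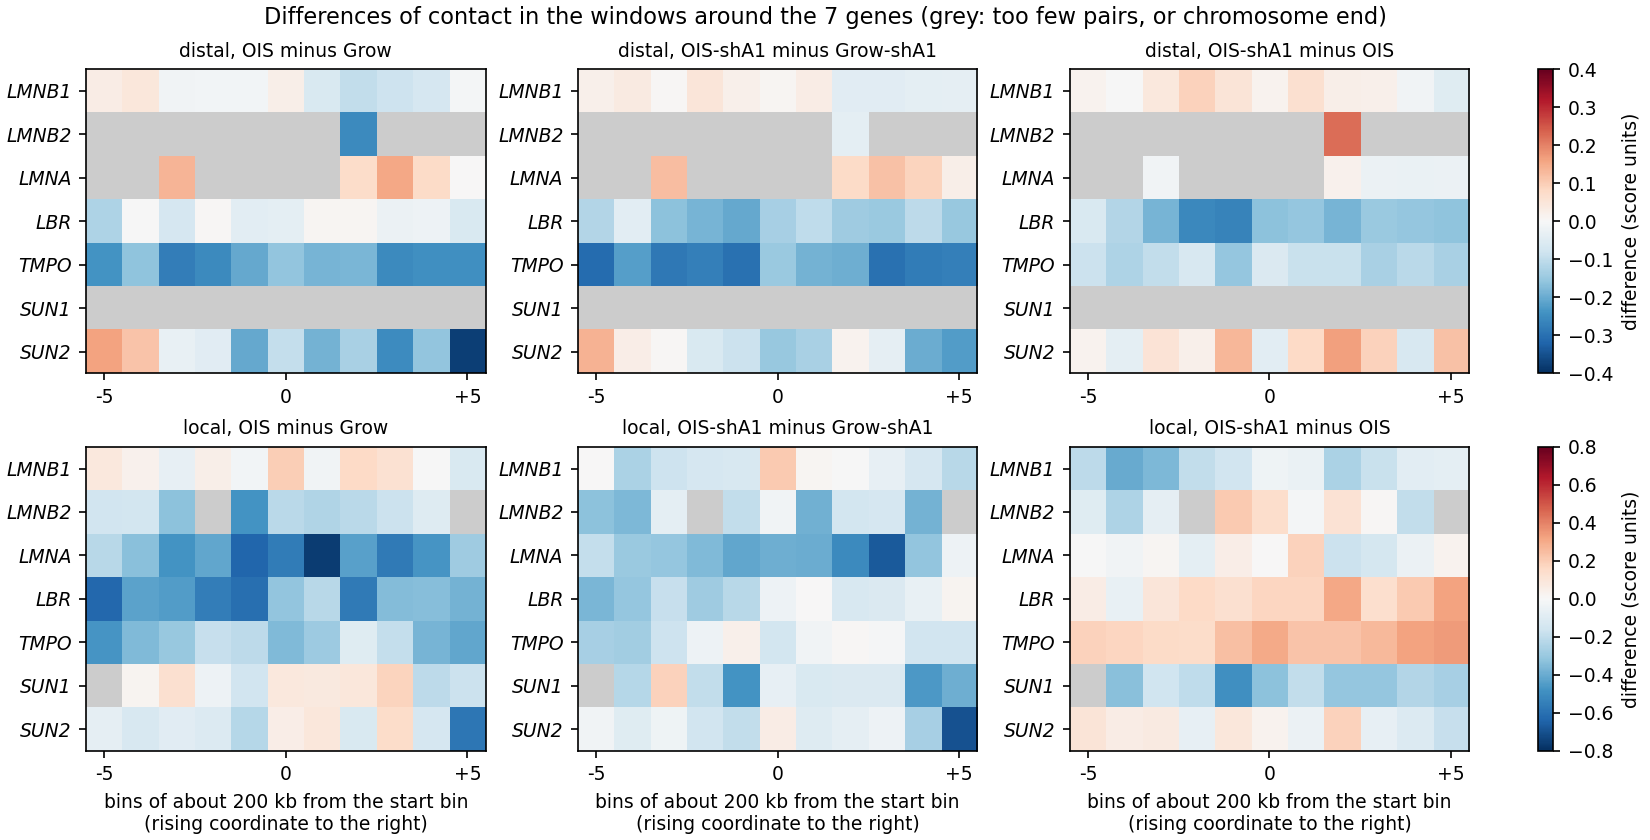
Differences of distal contact (above) and local contact (below) in the 11 bins around each start bin, in 3 comparisons (colour, score units, red higher and blue lower). Grey cells had too few pairs or lie beyond the chromosome end. The LBR row is blue throughout in distal OIS-shA1 minus OIS, the TMPO row is blue throughout in distal OIS minus Grow and red throughout in local OIS-shA1 minus OIS, and the LMNA row is blue throughout in local OIS minus Grow.

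SUN1 and SUN2 encode inner membrane proteins that join the lamina to nesprins in the outer membrane and so to the cytoskeleton. SUN1 lies at the end of chromosome 7, and its local pairs were split by side. The 4 pairs towards the end of the chromosome averaged 1.64 in Grow and 1.99 in OIS, and the 10 pairs on the other side averaged -0.900 and -0.922. Local contact over all 14 pairs was -0.173 in Grow, -0.354 in Grow-shA1, -0.0903 in OIS and -0.418 in OIS-shA1, so both maps with shA1 were lower than both without it. OIS-shA1 minus OIS was -0.328 (SD 0.315, percentile 6.46), lower in all 10 window bins, and Grow-shA1 minus Grow was -0.181 (SD 0.381, percentile 7.88), lower in 8 of 10. The medians of chromosome 7 were -0.0669 and -0.0382. In these 2 comparisons the hairpin and the data set cannot be told apart. Distal contact, from 113 of 768 pairs, was 0.152, 0.193, 0.0549 and 0.0761 in Grow, Grow-shA1, OIS and OIS-shA1, with an SD of at least 0.815. Its largest rise among 57 partner blocks was with chr7:43201358-43400831 (0.819) and its largest fall with chr7:3600745-3794765 (-1.11).

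SUN2 had the highest local contact of the 7 genes in all 4 maps, with the smallest range over the maps. It was 0.374 in Grow, 0.397 in Grow-shA1, 0.425 in OIS and 0.453 in OIS-shA1, and in the 4 comparisons its differences lay between 0.0232 and 0.0565. What moved was its compartment score, which was 1.12 in Grow, 1.10 in Grow-shA1, 0.613 in OIS and 0.619 in OIS-shA1. The senescent maps were lower, with differences of -0.509 without shA1 and -0.484 with it, at percentiles 7.14 and 4.76 of chromosome 22, and all 11 window bins were lower in both. The bin stayed in A. Distal contact was -0.0600 in Grow, -0.0492 in Grow-shA1, -0.156 in OIS and -0.199 in OIS-shA1, over 92 of 158 pairs. OIS minus Grow was -0.0956 and OIS-shA1 minus Grow-shA1 was -0.150, less than the SD over pairs of 0.657 and 0.677, and both were positive when unlisted pairs were counted as 0 (0.232 and 0.125). The medians of chromosome 22 were -0.145 and -0.101, so in OIS minus Grow SUN2 lay above the median of its chromosome. The listed share of this bin was 93.0% in Grow, 91.3% in Grow-shA1, 71.9% in OIS and 74.9% in OIS-shA1. Contact with its 21 B partners was -0.728 in Grow and -1.10 in OIS, and -0.747 and -1.09 with shA1. The part of the difference in listing in these values was not tested. Among 71 partner blocks the largest rise of SUN2 was with the bin of SERPIND1 (0.484) and the largest fall with chr22:28799948-29003194 (-0.851).

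**Figure D5:**
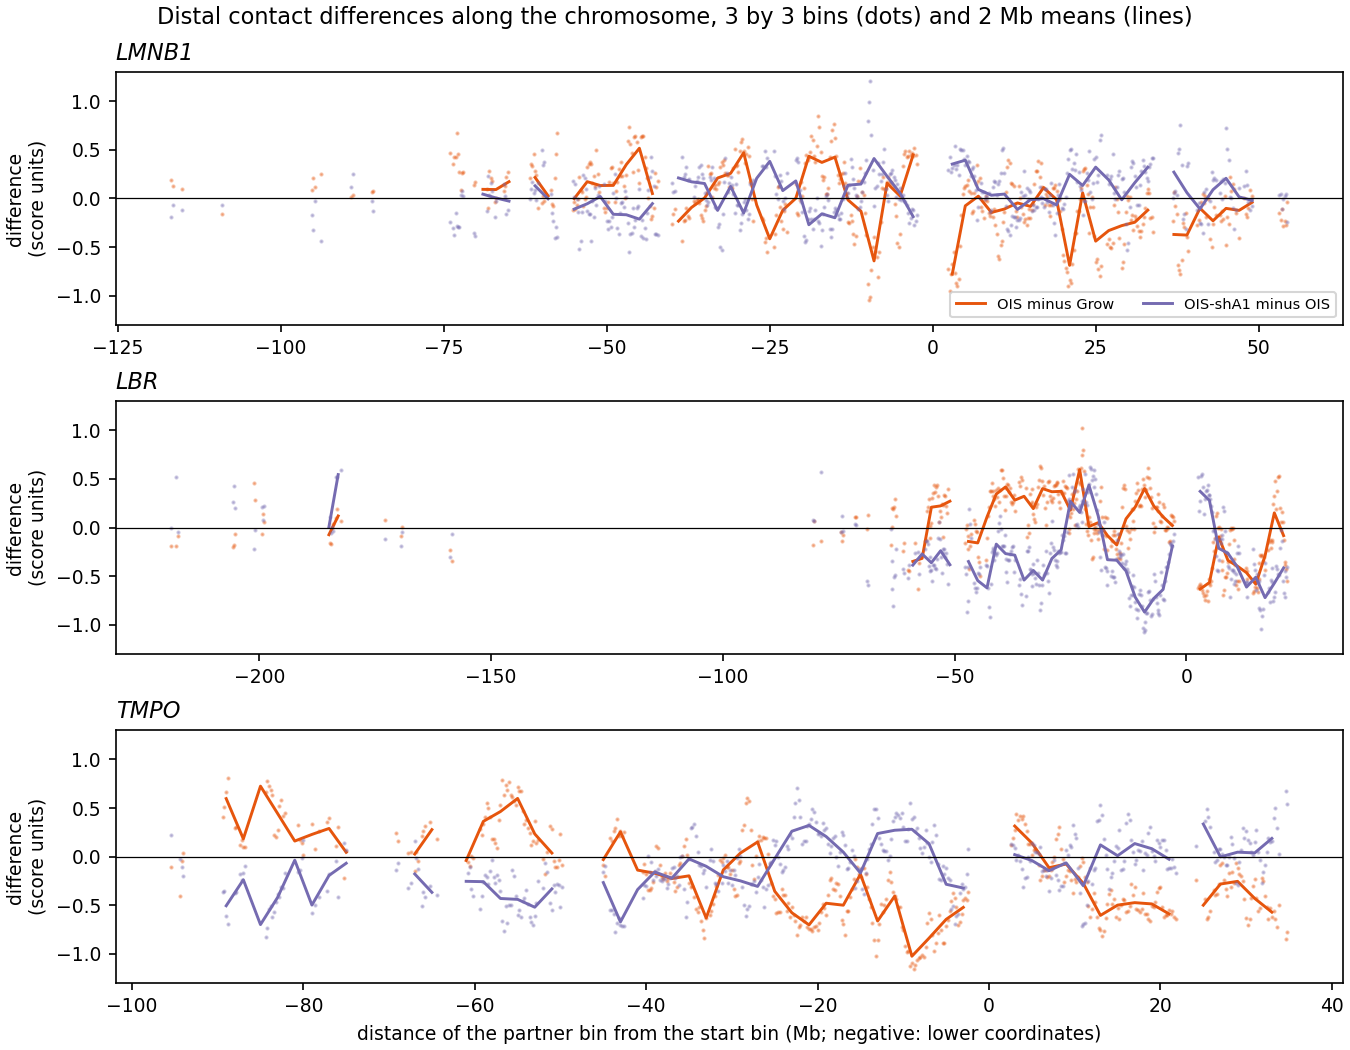
Difference of distal contact along the chromosome for LMNB1, LBR and TMPO, against the distance of the partner bin from the start bin (Mb). Dots are blocks of 3 by 3 bins with at least 7 of 9 pairs listed in all 4 maps, and lines are means over 2 Mb. For LBR, OIS-shA1 minus OIS is below 0 over much of the range up to 50 Mb, and for TMPO, OIS minus Grow is below 0 nearby and above 0 beyond 50 Mb. Both comparisons share the OIS map.

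Counts over the members are given beside the share of all bins past the same limit, and with 4 or 7 genes they are small. In distal OIS-shA1 minus Grow-shA1, 3 of the 4 readable genes (LBR, TMPO and SUN2) were past -0.1, where 31.7% of all bins were, and none was past 0.1, where 8.98% were. For SUN2 the median of its chromosome was itself -0.101. In distal Grow-shA1 minus Grow no readable gene was past either limit, where 16.7% of bins were below and 0.515% above. In local OIS minus Grow, 4 of 7 genes (LMNB2, LMNA, LBR and TMPO) were past -0.2 and none past 0.2, against 40.3% and 13.6% of all bins. In local OIS-shA1 minus Grow-shA1, LMNA was past -0.2, as were 30.0% of bins. In local OIS-shA1 minus OIS, TMPO was past 0.2 (18.6% of bins) and SUN1 past -0.2 (19.3%). In local Grow-shA1 minus Grow no gene was past 0.2 in either direction, where 0.363% of bins were above and 6.56% below. For the difference between the RAS differences with and without shA1, LBR and TMPO were above 0.2 in local contact (23.3% of bins) and none below (11.9%), and no readable gene was past 0.1 in distal contact, where 10.6% were above and 3.12% below. The median over the members of local OIS minus Grow was -0.213, beside -0.112 over all bins, and that of distal OIS minus Grow was -0.0675, beside -0.0585.

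Other genes of the nuclear envelope were read in the same way from a list of 34 genes. Among them were LEM-domain proteins, nesprins, the SUN genes SUN3 and SUN5, torsin and its cofactors, lamin-processing enzymes, HP1 proteins and nucleoporins. In distal OIS minus Grow 9 of 28 readable bins were past -0.1 and none past 0.1, beside 35.3% and 5.51% of all bins. Their median was -0.0578, beside -0.0585 over all bins. The lowest were TPR (-0.179, percentile 8.22 of its chromosome) and NUP93 (-0.174, percentile 57.0 of its own), both of the nuclear pore, so the NUP93 value was near the middle of its chromosome. The highest were NDC1 (0.0825, percentile 91.6), which anchors the pore in the membrane, and the nesprin gene SYNE2 (0.0679, percentile 85.9). In local OIS minus Grow 9 of 33 bins were past 0.2 and 9 past -0.2, beside 13.6% and 40.3% of all bins. The lowest were AHCTF1 (-0.811, percentile 4.2), which encodes the pore assembly factor ELYS, and PRR14 (-0.657, percentile 9.49), a tether of heterochromatin to the lamina. The highest were NUP210 (0.543, percentile 99.8) and EMD (0.448, percentile 99.6), which encodes emerin. Of the 28 bins, 1 was past -0.1 in distal OIS-shA1 minus OIS and none past 0.1, beside 18.7% and 4.54% of all bins, with a median of -0.00370 beside -0.0312.

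LMNA and LBR lie 69.6 Mb apart on chromosome 1 and are the only 2 members on the same chromosome. Their contact with each other was read between the windows, since the pair of start bins itself was not listed in all 4 maps. Of the 121 pairs between their windows, 68 were listed in every map. Their mean was 0.414 in Grow, 0.393 in Grow-shA1, 0.530 in OIS and 0.469 in OIS-shA1. These levels lay at percentiles 52.8, 78.2, 53.9 and 60.1 of the 193 blocks compared at the same distance on the chromosome, so in Grow and OIS the level was near the middle of them. The RAS difference was 0.116, at percentile 34.7 of these blocks, whose median was 0.211.

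The bins whose distal profile was most like that of each readable gene in Grow lay in A as well. For LMNB1 it was the bin of YIPF5 and KCTD16, 17.4 Mb away, with a Pearson r of 0.446 over 459 partner bins in Grow, 0.291 in Grow-shA1, 0.604 in OIS and 0.487 in OIS-shA1. For LBR it was the bin of LYST, which encodes a regulator of lysosome size, 10.4 Mb away, with r of 0.685 over 382 partner bins in Grow, 0.716 in Grow-shA1, 0.484 in OIS and 0.436 in OIS-shA1. The r of the LMNB1 pair was higher in the senescent maps and that of the LBR pair lower. Each bin was picked for its r in Grow, so the Grow values cannot be compared in size with those of the other maps. For TMPO it was the bin of ZFC3H1, THAP2, TMEM19 and RAB21 (0.569 in Grow, 0.410 in Grow-shA1, 0.554 in OIS and 0.603 in OIS-shA1, over 445 bins). For SUN2 it was a bin near the end of chromosome 22 with SBF1 and TYMP (0.523 in Grow, 0.354 in Grow-shA1, 0.180 in OIS and 0.345 in OIS-shA1, over 75 bins). Partner bins share maps, depth and base composition, and each bin was picked as the highest of many, so these values are descriptions.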

How the data were processed

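The authors aligned Hi-C reads to hg19 with HiC-Pro (the build and tool also stand in the submitters' processing notes), removed artefacts and duplicates, binned contacts at about 200 kb, applied ICE balancing and adjusted for distance. The values deposited by the authors are a score per pair of bins, with replicates pooled. Read counts per pair are not given. The counting error is therefore unknown, and the listed share of pairs served as depth. The deposited bin list was checked against the chromosome lengths and HindIII sites of GRCh37, and gene starts were taken from GENCODE lifted to GRCh37. Means, percentiles and principal components were computed with Python 3.11.15, numpy 2.4.6 and pandas 2.3.3, and the scripts were tested on simulated maps. Of 14310 bins on the autosomes and X, 13604 met the rule for distal and 14045 that for local contact.

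The 7 members and the list of other envelope genes were chosen with earlier results of these data known. All members are named, with the partner block of largest rise and of largest fall (3 by 3 bins, at least 7 of 9 pairs), the bin most alike over 10 Mb away, and the extreme 2 of the other envelope genes. There were 11 alternatives for distal contact, 10 for local contact and 3 for compartments. No test between conditions was made, since each condition has 1 map. The edge sequences of the LMNB1 bin are not reported here.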

Additional observations from a re-analysis of the deposited data

How the results depend on the processing

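With 1 pooled map per condition, leaving out a replicate was not possible. No paired analysis was possible because the maps pool the replicates and carry no replicate number. Limits are the unknown base of the score, the low listing of the LMNB2, LMNA and SUN1 bins, and few local pairs per bin.

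The count of members past the limit moved as follows. Distal OIS minus Grow went from 1 to 2 with all pairs listed in each map, with unlisted pairs as 0, with the mean over the window and over pairs beyond 5 Mb. Distal OIS-shA1 minus Grow-shA1 went from 3 to 1 with all pairs listed in each map. Distal OIS-shA1 minus OIS went from 1 to 0 with all pairs listed in each map and with unlisted pairs as 0, and to 2 with the window. Distal Grow-shA1 minus Grow went from 0 to 1 with values divided by the SD and over 2 to 50 Mb. The distal difference of RAS differences went from 0 to 1 under 8 alternatives (common centring, all pairs listed in each map, unlisted pairs as 0, the median, the window, over 5 Mb, 2 to 50 Mb and, chosen after seeing the data, partner bins under the listing rule). Local OIS minus Grow went from 4 to 2 with the median. Local OIS-shA1 minus Grow-shA1 went from 2 to 1 with scores clipped at the 1st and 99th percentile, divided by the SD, or within 1 Mb. Local OIS-shA1 minus OIS went from 2 to 1 with the median. Local Grow-shA1 minus Grow went from 0 to 1 with the median and to 2 within 1 Mb. The local difference of RAS differences went from 2 to 1 with limited values, the SD or the median, to 0 with common centring and to 4 within 1 Mb. Members in A were 4 of 4 in each map, 7 of 7 in Grow, OIS and OIS-shA1 with every bin that has any value (chosen after seeing the data), and 6 of 7 in Grow-shA1. With the window they were 2 of 4 in Grow-shA1 and 3 of 4 in the other maps, and with a component per arm 3 of 4 in OIS and 4 of 4 in the others. The causes were not tested.

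Of the differences past their limit, these changed sign: distal OIS-shA1 minus Grow-shA1 of SUN2 (0.0679 with all pairs listed in each map, 0.125 with unlisted pairs as 0), local OIS minus Grow of LMNB2 (0.184 within 1 Mb, 0.297 with partner bins under the listing rule) and of LBR (0.0309 with common centring), local OIS-shA1 minus Grow-shA1 of LMNB1 (-0.0796 with the window) and the local difference of RAS differences of TMPO (-0.197 with the median). Differences under the limit changed sign too, among them distal OIS minus Grow of SUN2 (up to 0.232), local OIS minus Grow of SUN1 (down to -0.146), local OIS-shA1 minus Grow-shA1 of LBR (up to 0.144) and local OIS-shA1 minus OIS of LMNB2 (down to -0.327). The LBR fall in distal OIS-shA1 minus OIS kept its sign in all 11 alternatives (-0.285 to -0.0608), and the TMPO fall in distal OIS minus Grow in all 11 (-0.299 to -0.101). The LMNB1 rise in local OIS minus Grow, which at 0.198 was under the limit of 0.2, kept its sign in all 10. It lay between 0.0365, the mean over the window, and 0.328.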
